A study of Homo sapiens with 12 samples.

Results

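The comparison described here placed OCI-AML2 cells carrying a guide RNA against KDM6A, the gene of the histone demethylase UTX, beside cells carrying a control guide against luciferase (sgLuc), all of them kept in an inhibitor of the histone methyltransferase DOT1L. OCI-AML2 is a human acute myeloid leukemia line with a rearranged KMT2A (MLL) gene. It used 6 of the 12 RNA libraries of the series, namely 2 with sgLuc, 2 with the guide sgUTX_2 and 2 with the guide sgUTX_4, and all 15060 genes that passed a filter on low counts, of 58735 identifiers in the deposited table. Every one of the 6 libraries, controls included, came from cells infected with a lentivirus carrying the guide and exposed to 1 µM SGC0946 for 6 days. The labels give the sgLuc cells as wild type and the cells of both UTX guides as UTX knockout. The other 6 libraries came from cells with the same 3 guides and the vehicle DMSO. Their levels are given below only to show where the UTX effect differed between SGC0946 and DMSO. They were also part of the fit of all 12 libraries, and so had a share in its filter, scaling and estimate of spread. All libraries came from 1 cell line, and whether the infected cells were a mixed population or single clones is not given in the sources used here.

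UTX removes methyl groups from lysine 27 of histone H3, a mark of silenced genes, and works inside complexes with the methyltransferases KMT2C and KMT2D. DOT1L places methyl groups on lysine 79 of histone H3 within transcribed genes, and leukemias with KMT2A fusions are known to depend on it for the expression of HOXA genes and MEIS1. Inhibition of DOT1L in such leukemias is known to let the cells take on features of mature monocytes and granulocytes.

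Total counts of the 6 libraries lay between 16807292 and 23262141. The first principal component of their log2 levels held 87% of the variance and put the sgLuc libraries at -63.5 and -66.6 and all 4 UTX-guide libraries between 32.0 and 33.0, while the second held 5.4% and separated the guides. Genes of ribosomal proteins took 13.02% and 13.21% of all counts with sgLuc against 11.07% to 12.22% with the UTX guides, and mitochondrial genes 1.91% and 2.02% against 1.38% to 1.51%. Whether these shares had a part in any result below was not tested. No label names separate cultures behind the pair of libraries in each group. The p-values therefore rest on variation between libraries that is possibly technical, and, where both guides are tested together, also on that between the 2 guides. Levels are CPM, read counts relative to the scaled library size. Fold changes are log2 values of the UTX guides over sgLuc unless another comparison is named.

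The targeted gene itself differed between the guides. KDM6A (ENSG00000147050, chromosome X, 44873177 to 45112602, plus strand, GENCODE 29 on GRCh38) stood at 35.1 and 34.5 CPM with sgLuc, 14.4 and 15.9 with sgUTX_2 and 43.2 and 48.9 with sgUTX_4. Its RNA was lower than in the controls with sgUTX_2 (log2 fold change -1.2, SE 0.10, adjusted p = 1.89e-12) and higher with sgUTX_4 (log2 fold change 0.41, SE 0.09, adjusted p = 3.01e-04), and the groups of the 3 guides did not overlap. Both guides together gave -0.20 (SE 0.68, adjusted p = 0.823), the 2 guides having opposite signs. Small insertions or deletions made by a guide need not lower the amount of RNA, so the level in the libraries labelled sgUTX_4 does not check whether the gene was disrupted there. Fold changes below are for both guides together unless a guide is named, and the closing section lists the named genes that were called between the guides.

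Genes of related histone enzymes moved in both directions. Of 22 measured genes for UTX partners and for H3K4 or H3K27 enzymes, 8 rose and 2 fell, where 27.7% of all genes tested were called higher and 29.3% lower. KDM6B, the related H3K27 demethylase JMJD3, stood at 138 and 134 CPM with sgLuc, 76.1 and 67.6 with sgUTX_2 and 64.7 and 70.3 with sgUTX_4. It fell with either guide (log2 fold change -0.96, SE 0.06, adjusted p = 1.02e-11). EZH2, the methyltransferase that sets the H3K27 mark, rose by 0.53 (SE 0.08, adjusted p = 3.36e-06), and DOT1L, the target of the inhibitor, by 0.57 (SE 0.06, adjusted p = 5.15e-08).

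Across all genes, 4165 rose and 4406 fell with the UTX guides at an adjusted p under 0.05 (27.7% and 29.3% of 15060). Changes of at least 2-fold were less even, with 745 genes higher (4.95%) and 1849 lower (12.3%). Against the same sgLuc libraries, sgUTX_2 alone gave 4109 genes higher (27.3%) and 4386 lower (29.1%), and sgUTX_4 alone 4113 higher (27.3%) and 4368 lower (29.0%). The 2 guides share these controls, so their values are set side by side and no overlap between them is counted. With scaling by library size alone, the median log2 change over all genes was 0.20 in place of 0.01. The calls then split into 5992 higher and 3226 lower, 65.0% higher in place of 48.6%. For every called gene whose 6 levels are given below, both sgLuc libraries lay above or both below all 4 UTX-guide libraries, as they did for 33.8% of all genes upward and 34.3% downward. Small changes are relative to the scaling, and the genes and lists are read against the median of all genes of 0.01. Counts of list members that rose or fell are read against the 27.7% and 29.3% of all genes. The filter kept a gene with enough counts in as few as 2 libraries. A gene kept through 1 group alone could only be higher there, so its direction was fixed in advance.

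Receptors and enzymes of mature monocytes and neutrophils stood among the genes that fell furthest. VNN2 (ENSG00000112303, chromosome 6, 132743870 to 132763459, minus strand), a pantetheinase on the surface of neutrophils and monocytes, stood at 66.4 and 79.7 CPM with sgLuc, 0.446 and 0.616 with sgUTX_2 and 0.68 and 1.02 with sgUTX_4. It fell by more than any other protein-coding gene that met the naming rule (log2 fold change -6.73, SE 0.17, adjusted p = 1.52e-18), and the highest of the UTX-guide libraries was at 1.02. The related VNN1 changed by -5.86. The other genes among the 15 furthest down were ENPP2, which makes lysophosphatidic acid (-6.59), the receptor LILRA5 (-6.55), GIMAP4 (-6.42), the secreted phosphoprotein SPP1 (-6.32), FCGR2B (-5.9), FCGR3B (-5.85), LILRA6 (-5.71), the adhesion receptor ADGRE3 (-5.7), FCGR3A (-5.7), TDRD9 (-5.69), the water and glycerol channel AQP9 (-5.47), the metalloreductase STEAP4 (-5.43) and heme oxygenase HMOX1 (-5.38). Some of these, GIMAP4, LILRA6 and ADGRE3 among them, were at most 0.606 CPM outside the sgLuc SGC0946 libraries. They passed the filter through those libraries alone, so their direction was fixed in advance. In these bulk libraries fewer cells of a mature type and less RNA per cell cannot be told apart.

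The gene that rose furthest by the naming rule was a transporter. SLC6A9 (ENSG00000196517, chromosome 1, 43991500 to 44031467, minus strand), a glycine transporter, stood at 1.15 and 0.998 CPM with sgLuc, 19.7 and 20.99 with sgUTX_2 and 9.24 and 17.2 with sgUTX_4. It rose by 3.98 (SE 0.41, adjusted p = 8.52e-06), with every UTX-guide library above both controls and 1 sgUTX_4 library lower than the other 3. Among the 15 furthest up were also CHAC1 (3.48), which degrades glutathione, the serine synthesis enzyme PSAT1 (2.43), the folate enzyme ALDH1L2 (2.46), the alanine aminotransferase GPT2 (2.15) and cystathionine gamma-lyase CTH (1.98). The remaining ones were the receptor subunit GABRG1 (2.93), the platelet and endothelial protein MMRN1 (2.55), the cytokine signal inhibitor SOCS2 (2.41), the transcription factor FOXA1 (2.41), the peptide hormone ADM2 (2.34), the netrin receptor UNC5C (2.33), the elastase ELANE (2.28), the membrane skeleton protein EPB41L2 (2.08) and DDN (1.99).

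**Figure D1:**
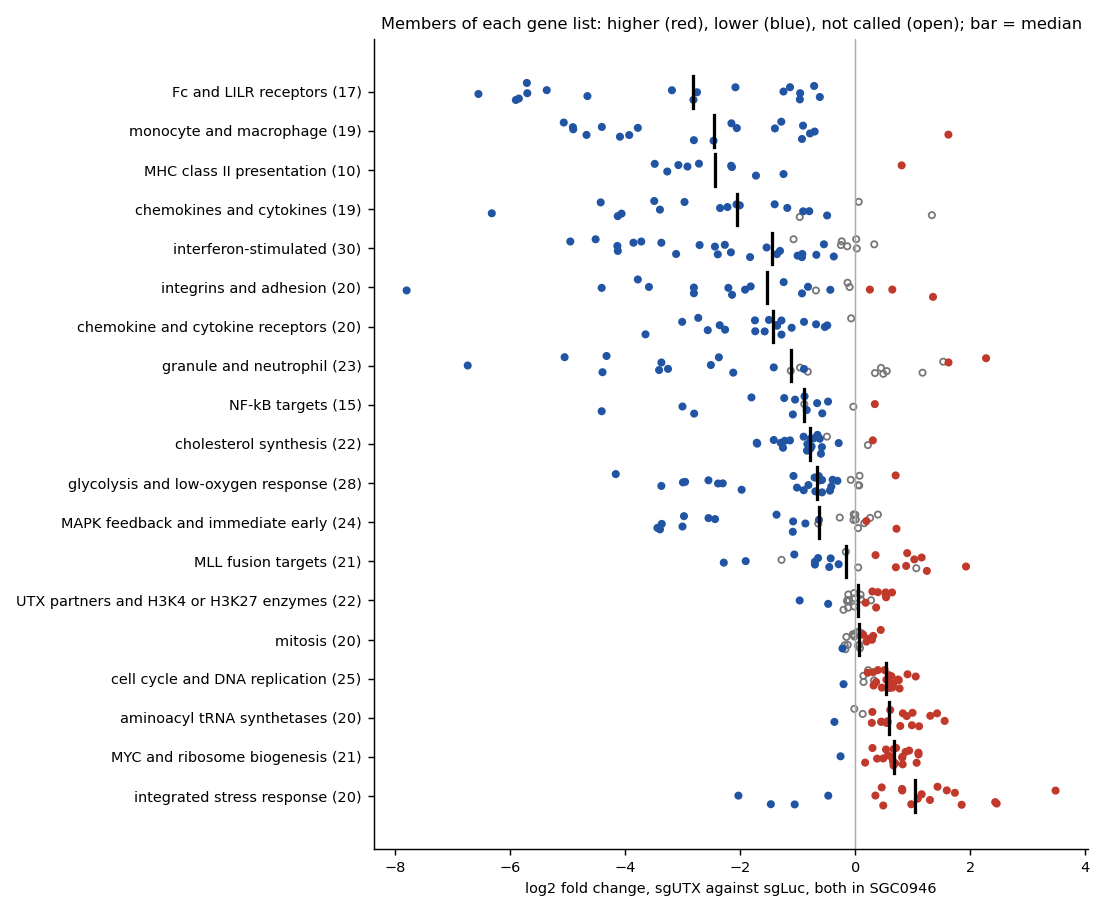
Log2 fold change (x axis) of every measured member of 19 gene lists (rows, number of measured members in brackets) with both UTX guides against sgLuc in SGC0946. Each point is 1 gene, red where called higher, blue where called lower and open where not called, and the black bar is the list's median: Fc and LILR receptors lie furthest to the left at a median of -2.81 and integrated stress response genes furthest to the right at 1.03.

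Monocyte and macrophage genes were lower almost throughout. Of 19 measured members, 18 fell and 1 rose, with a median of -2.46 against 0.01 over all genes, and of -2.68 with sgUTX_2 and -2.03 with sgUTX_4. CD14, the lipopolysaccharide co-receptor of monocytes, stood at 546 and 566 CPM with sgLuc, 14.1 and 13.1 with sgUTX_2 and 19.5 and 20.3 with sgUTX_4. Both controls lay far above every UTX-guide library (log2 fold change -5.06, SE 0.13, adjusted p = 4.68e-12), and sgUTX_4 left slightly more than sgUTX_2 (0.55 between the guides, adjusted p = 1.63e-04). ITGAM, the integrin CD11b, fell from 202 and 204 CPM to between 10.8 and 18.2 (log2 fold change -3.78, SE 0.18, adjusted p = 1.40e-08). CD86, a costimulatory ligand, fell by 4.67 on the log2 scale, and S100A12, an alarmin of phagocytes, fell by 4.4. Lysozyme (LYZ) fell less, with 9453 and 9246 CPM with sgLuc, 2889.7 and 3259 with sgUTX_2 and 4699 and 4513 with sgUTX_4 (log2 fold change -1.28, SE 0.31, adjusted p = 0.00702), and 34.0% of its exonic bases are shared with an overlapping gene. CSF1R, the receptor for the macrophage growth factor M-CSF, fell by 1.39, and the lipopolysaccharide receptor TLR4 by 0.70. The member that rose, APOE, was below 1 CPM in all 6 libraries (log2 fold change 1.62, SE 0.60, adjusted p = 0.0248), and its adjusted p was 0.195 without sgLuc replicate 1 and 0.0623 without sgLuc replicate 2.

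Receptors for antibodies and for class I molecules had the lowest median of the lists. All 17 measured Fc and LILR receptors were lower, with a median of -2.81 and of -2.91 with sgUTX_2 and -2.81 with sgUTX_4, and their summed level was 1585 to 1664 CPM with sgLuc and 364 to 400.1 CPM with the UTX guides. The inhibitory IgG receptor FCGR2B stood at 98.2 and 113 CPM with sgLuc, 2.01 and 1.56 with sgUTX_2 and 2.15 and 1.38 with sgUTX_4 (log2 fold change -5.9, SE 0.15, adjusted p = 8.37e-18). FCGR3A, the CD16 receptor, stood at 89.2 and 96.4 CPM with sgLuc, 2.27 and 1.23 with sgUTX_2 and 2.38 and 1.33 with sgUTX_4 (log2 fold change -5.7, SE 0.18, adjusted p = 2.73e-14). FCGR2A, the activating IgG receptor of phagocytes, kept more of its level, with 217 and 238 CPM with sgLuc, 34.4 and 30.8 with sgUTX_2 and 32.4 and 32.5 with sgUTX_4 (log2 fold change -2.81, SE 0.08, adjusted p = 2.70e-18). FCER1G, the signalling chain shared by several Fc receptors, fell by 2.75, and the members that fell least were LILRB1 (-0.61) and LILRA1 (-0.71). FCGR and LILR genes are close copies of each other, so reads can be split between them, and the values of single members are uncertain. LILRA6 stood at 13.8 and 15.4 CPM with sgLuc, at most 0.401 with the UTX guides and at most 0.606 in DMSO. It passed the filter through the sgLuc SGC0946 libraries alone, so its place in the count of 17 was fixed in advance.

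Granule genes moved in both directions. Of 23 measured granule and neutrophil genes, 2 rose, 12 fell and 9 were not called (median -1.12, and -2.25 with sgUTX_2 and -0.92 with sgUTX_4). With sgUTX_2 alone 3 rose and 15 fell, and with sgUTX_4 alone 8 rose and 12 fell. The calprotectin chain S100A9 stood at 6978 and 6571 CPM with sgLuc, 1061 and 1262 with sgUTX_2 and 2095 and 1822 with sgUTX_4 (log2 fold change -2.12, SE 0.42, adjusted p = 0.00245). Its partner S100A8 stood at 2727 and 2499 CPM with sgLuc, 285 and 349.6 with sgUTX_2 and 721 and 669 with sgUTX_4 (log2 fold change -2.37, SE 0.60, adjusted p = 0.00851). Both are products of late maturation, as are the formyl peptide receptor FPR1, which fell by 5.05, the gelatinase MMP9, which fell by 4.39, the interleukin 8 receptor CXCR1, which fell by 3.41, and the cathelicidin CAMP, which fell by 3.25. Of these FPR1, MMP9 and CXCR1 were higher with sgUTX_4 than with sgUTX_2, by 0.63, 0.50 and 1.22 (adjusted p = 0.0274, 0.0035 and 0.0155). CSF3R, the G-CSF receptor, fell by 0.89. Proteases of the primary granules, which promyelocytes make, were the members that rose. ELANE stood at 94.05 and 106 CPM with sgLuc, 368 and 369 with sgUTX_2 and 631 and 567 with sgUTX_4 (log2 fold change 2.28, SE 0.39, adjusted p = 0.00108). PRTN3 stood at 363 and 390.1 CPM with sgLuc, 893 and 940.1 with sgUTX_2 and 1509.7 and 1295 with sgUTX_4 (log2 fold change 1.62, SE 0.39, adjusted p = 0.00664), although its adjusted p was 0.0532 without sgLuc replicate 1. For both, all 4 UTX-guide libraries lay above both controls and sgUTX_4 above sgUTX_2.

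Other primary granule genes differed between the guides. DEFA3, an alpha defensin, stood at 184 and 182 CPM with sgLuc, 170.1 and 182 with sgUTX_2 and 700.2 and 597 with sgUTX_4, so that sgUTX_2 lay at the level of the controls and sgUTX_4 above it. The difference between the guides was 1.88 (SE 0.15, adjusted p = 8.06e-04), and both together gave 1.17 (adjusted p = 0.262). CTSG, cathepsin G, showed the same order, with 274 and 275 CPM with sgLuc, 239.7 and 266 with sgUTX_2 and 549.9 and 489 with sgUTX_4 and a difference between the guides of 1.04 (adjusted p = 0.00459, and 0.0699 without sgUTX_2 replicate 1). The defensin DEFA4 differed by 1.58 between the guides (adjusted p = 0.0237), a call that was lost without any 1 of the 6 SGC0946 libraries (adjusted p of 0.0583 to 0.198). AZU1 (azurocidin) missed the threshold with both guides pooled (0.34, adjusted p = 0.112), but rose with each alone, by 0.18 with sgUTX_2 and 0.49 with sgUTX_4 (adjusted p = 0.0111 and 1.87e-08). It was also called with the guides fitted apart and averaged (adjusted p = 1.55e-06), with the 6 SGC0946 libraries fitted alone (0.0127) and with library size scaling alone (0.0249). Myeloperoxidase (MPO) likewise missed it with both pooled (0.45, adjusted p = 0.227) and was called with sgUTX_4 alone (0.62, adjusted p = 0.0116), with the guides averaged (0.0263) and with the 6 libraries alone (0.0343). Alpha defensin genes are near copies of each other, and reads may be split among them.

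**Figure D2:**
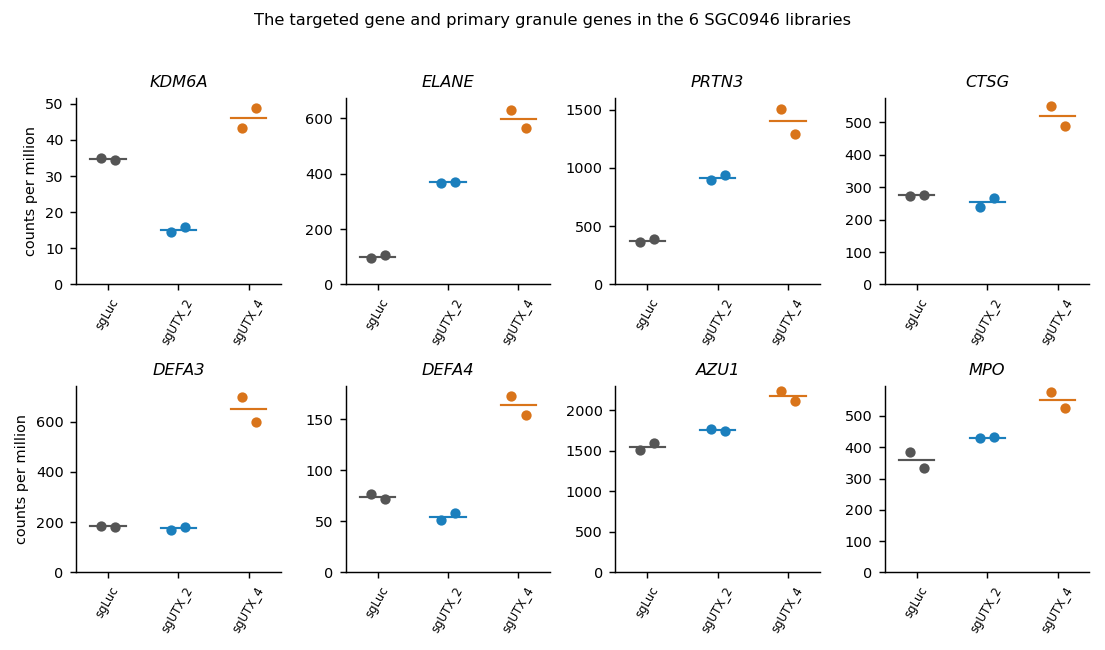
Level in CPM (y axis, from 0) of KDM6A and of 7 primary granule genes in the 6 SGC0946 libraries (points), by guide (x axis), with the mean of the 2 libraries of a guide as a line. KDM6A lies below the controls with sgUTX_2 and above them with sgUTX_4, and DEFA3 stands between 170.1 and 184 CPM with sgLuc and sgUTX_2 and at 597 and 700.2 with sgUTX_4.

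The killing and digesting machinery of phagocytes was lower as well. All 6 measured subunits of the phagocyte NADPH oxidase, which makes superoxide, fell (median -0.89, summed level 2850.0 to 2929.5 CPM with sgLuc and 1413 to 1539.9 CPM with the UTX guides). NCF1 (p47phox), whose reads can be shared with pseudogene copies, stood at 164 and 171 CPM with sgLuc, 21.8 and 24.9 with sgUTX_2 and 24.9 and 22.5 with sgUTX_4 (log2 fold change -2.83, SE 0.09, adjusted p = 1.25e-17). CYBB, the catalytic subunit, fell less, from 974 and 1019.7 CPM to between 489 and 576 (log2 fold change -0.92, SE 0.07, adjusted p = 8.96e-11). Of 18 cathepsin and lysosome genes 13 fell and 2 rose (median -0.55). Cathepsin B (CTSB) stood at 369.5 and 389.9 CPM with sgLuc, 124 and 130.2 with sgUTX_2 and 123 and 131 with sgUTX_4 (log2 fold change -1.58, SE 0.06, adjusted p = 5.42e-16). Cathepsin S (CTSS) fell by 1.7, while the lysosomal membrane protein LAMP1 rose by 0.33 (adjusted p = 5.15e-04).

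Secreted signals and their receptors fell together. None of 19 chemokines and cytokines rose and 16 fell (median -2.06), and of 20 chemokine and cytokine receptors none rose and 19 fell (median -1.43). Interleukin 8 (CXCL8), which draws neutrophils, stood at 567 and 589 CPM with sgLuc, 134 and 146 with sgUTX_2 and 139.5 and 134 with sgUTX_4 (log2 fold change -2.06, SE 0.06, adjusted p = 2.55e-18). IL1B, an inflammatory cytokine, stood at 46.8 and 52.95 CPM with sgLuc, 7.22 and 6.24 with sgUTX_2 and 6.29 and 5.73 with sgUTX_4 (log2 fold change -2.97, SE 0.12, adjusted p = 3.47e-15). CCL2, which draws monocytes, fell by 3.39. TNF fell by 1.4 (adjusted p = 0.0012). Among receptors, the complement receptor C5AR1 stood at 56.4 and 60.05 CPM with sgLuc, 4.81 and 4.72 with sgUTX_2 and 3.34 and 5.62 with sgUTX_4 (log2 fold change -3.64, SE 0.13, adjusted p = 2.64e-16). The interleukin 10 receptor IL10RA fell by 3.01 and the homing receptor CXCR4 by 1.74. Of 20 integrins and adhesion molecules 14 fell and 3 rose (median -1.53). ITGB2, the beta chain of the leukocyte integrins, stood at 1847 and 1893 CPM with sgLuc, 521 and 503 with sgUTX_2 and 476 and 485 with sgUTX_4 (log2 fold change -1.91, SE 0.13, adjusted p = 9.86e-08). PECAM1 fell by 2.2, whereas ITGA4, the alpha chain of VLA-4, rose by 0.65 (adjusted p = 9.69e-09).

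Genes of antigen presentation on class II molecules were lower, except for 1 of their regulators. Of 10 measured members 9 fell and RFX5 rose (median -2.44, and -2.35 with sgUTX_2 and -2.71 with sgUTX_4). HLA-DRA, a class II chain, stood at 124 and 141 CPM with sgLuc, 23.4 and 19.5 with sgUTX_2 and 15.2 and 11.7 with sgUTX_4 (log2 fold change -2.91, SE 0.20, adjusted p = 9.69e-07), with sgUTX_4 below sgUTX_2 (-0.68, adjusted p = 0.00546). CD74, the invariant chain, stood at 973 and 993 CPM with sgLuc, 459 and 438 with sgUTX_2 and 376 and 386 with sgUTX_4 (log2 fold change -1.25, SE 0.07, adjusted p = 4.39e-12). CIITA, the coactivator of class II genes, stood at 17.2 and 14.8 CPM with sgLuc, 6.02 and 5.54 with sgUTX_2 and 4.02 and 3.58 with sgUTX_4 (log2 fold change -1.72, SE 0.18, adjusted p = 4.22e-08; 23.4% of its exonic bases are shared with DEXI). HLA-DMB fell by 3.07 and HLA-DPB1 by 3.48. HLA-DQB1, at 0.966 and 1.72 CPM with sgLuc, changed by -2.16 (adjusted p = 0.00126, and 0.0859 without sgLuc replicate 2). RFX5, a subunit of the factor that binds class II promoters, stood at 40.4 and 44.4 CPM with sgLuc, 71.5 and 76.4 with sgUTX_2 and 72.2 and 76.8 with sgUTX_4 (log2 fold change 0.81, SE 0.07, adjusted p = 2.06e-09). Of 13 class I presentation genes 8 fell and 2 rose (median -0.17; 0.0126 with library size scaling alone), among them B2M, the light chain (-0.78, adjusted p = 6.56e-07), and, upward, the peptide transporter TAP2 (1.02, adjusted p = 3.48e-09; 32.3% of its exonic bases are shared with an overlapping gene). HLA genes are near copies that differ between people, and reads may be split among them.

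Class II promoters are known for a box that binds the trimeric factor NF-Y, with the core CCAAT.
Of the 8 class II genes matched to a RefSeq promoter (250 bases before to 50 after the start, GRCh38.p14), 7 held CCAAT on either strand, against 34.6% of all 35116 promoters in that table. The box was not particular to this list, since 14 of 16 mitosis promoters and 15 of 22 cell cycle and DNA replication promoters held it too.
The stretches are shown because the first 4 belong to genes that fell and the last to RFX5, which rose, and all of them hold the box.
Capitals mark CCAAT on the strand shown or, as ATTGG, on the other strand, and a match is a description of letters, not a site.
HLA-DPB1, chr6:33075880-33075939, plus strand: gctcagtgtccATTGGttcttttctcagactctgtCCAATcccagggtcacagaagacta
HLA-DQB1, chr6:32666698-32666757, minus strand: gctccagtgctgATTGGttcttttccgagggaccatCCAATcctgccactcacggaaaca
CD74, chr5:150412941-150412990, minus strand: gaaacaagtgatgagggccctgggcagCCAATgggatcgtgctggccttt
HLA-DMB, chr6:32941029-32941078, minus strand: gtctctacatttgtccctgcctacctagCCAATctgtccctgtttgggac
RFX5, chr1:151347323-151347372, minus strand: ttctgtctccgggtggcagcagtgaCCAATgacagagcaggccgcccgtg

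Interferon-stimulated genes, which cells use against viruses and which are also part of the mature monocyte programme, were lower in 23 of 30 measured members and higher in none (median -1.45, and -1.46 with sgUTX_2 and -1.44 with sgUTX_4). OAS1 and OAS3 sense double-stranded RNA, and IFIT1 binds viral RNA. OAS3 stood at 17.4 and 16.6 CPM with sgLuc, 1.11 and 0.411 with sgUTX_2 and 0.68 and 0.767 with sgUTX_4 (log2 fold change -4.51, SE 0.28, adjusted p = 7.91e-12). IFIT1 stood at 6.34 and 6.38 CPM with sgLuc, 0.446 and 0.287 with sgUTX_2 and 0.51 and 0.204 with sgUTX_4 (log2 fold change -4.13, SE 0.31, adjusted p = 9.88e-11), and IFIT3, its partner, had 13.2 and 15.6 CPM with sgLuc, 1.203 and 1.36 with sgUTX_2 and 1.6999 and 1.33 with sgUTX_4 (log2 fold change -3.37, SE 0.22, adjusted p = 1.15e-11). OAS1 fell by 4.95, the ubiquitin-like ISG15 by 2.7, the regulator IRF7 by 2.27 and the tether BST2 by 1.31. The sensor IFIH1 stood at 10.1 and 15.1 CPM with sgLuc, 10.8 and 10.9 with sgUTX_2 and 11.6 and 12.9 with sgUTX_4 (-0.14, adjusted p = 0.417; -0.39 and 0.0383 without sgLuc replicate 1). It was not called, and the levels of its groups overlapped.

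The promoters of these genes are known for the interferon-stimulated response element, searched here as GAAANNGAAA on both strands.
Of 20 members matched to a RefSeq promoter 14 held it, against 3.57% of all promoters in the table.
The first 5 stretches belong to members that fell, and the last, of IFIH1, to a member that was not called and holds the same letters.
Capitals mark the element, shown as its reverse complement where it lies on the other strand, and overlapping matches run together.
IFIT1, chr10:89392493-89392542, plus strand: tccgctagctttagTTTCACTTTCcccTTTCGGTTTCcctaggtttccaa
IFIT3, chr10:89327827-89327896, plus strand: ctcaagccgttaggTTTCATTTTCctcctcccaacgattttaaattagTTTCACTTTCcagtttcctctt
ISG15, chr1:1013367-1013416, plus strand: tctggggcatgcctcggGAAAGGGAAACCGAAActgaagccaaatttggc
OAS3, chr12:112938309-112938358, plus strand: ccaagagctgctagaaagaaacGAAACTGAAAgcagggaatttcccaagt
BST2, chr19:17405731-17405780, minus strand: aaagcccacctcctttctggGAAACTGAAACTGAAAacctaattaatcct
IFIH1, chr2:162318810-162318859, minus strand: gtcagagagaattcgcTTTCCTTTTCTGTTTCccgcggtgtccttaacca

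Immediate early and NF-kB target genes, which respond to signals within minutes to hours, were mostly lower. Of 24 genes of MAPK feedback and immediate early response 12 fell and 2 rose (median -0.64), and of 15 NF-kB targets 12 fell and 1 rose (median -0.88). The AP-1 subunits FOS and JUN moved alike. JUN stood at 58.6 and 66.7 CPM with sgLuc, 7.399 and 5.996 with sgUTX_2 and 6.12 and 4.75 with sgUTX_4 (log2 fold change -3.36, SE 0.14, adjusted p = 5.93e-14). FOS stood at 57.7 and 71.3 CPM with sgLuc, 8.56 and 5.63 with sgUTX_2 and 5.84 and 4.396 with sgUTX_4 (log2 fold change -3.39, SE 0.15, adjusted p = 8.00e-12). EGR2, a factor of macrophage differentiation, fell by 2.98 and PHLDA1 by 3.44, whereas EGR1 stood at 8.39 and 7.82 CPM with sgLuc, 10.3 and 8.296 with sgUTX_2 and 9.12 and 11.1 with sgUTX_4 (0.26, adjusted p = 0.155). ICAM1, an adhesion ligand, fell by 4.41 (23.6% of its exonic bases are shared) and the regulator BCL3 by 2.8, while NFKB1 rose by 0.34 (adjusted p = 2.38e-04). Myeloid transcription factors split, with 4 of 19 higher and 12 lower (median -0.28). KLF4, which drives monocyte differentiation, stood at 18.2 and 16.4 CPM with sgLuc, 5.79 and 6.24 with sgUTX_2 and 6.63 and 7.36 with sgUTX_4 (log2 fold change -1.41, SE 0.14, adjusted p = 1.87e-08). SPI1 (PU.1) fell by 0.35 and CEBPB by 0.51. GFI1, a repressor active in granulocyte progenitors, stood at 83.001 and 75.2 CPM with sgLuc, 165 and 176 with sgUTX_2 and 178 and 192 with sgUTX_4 (log2 fold change 1.17, SE 0.07, adjusted p = 5.10e-12). CEBPA rose by 0.40 (adjusted p = 3.65e-06; 43.4% of its exonic bases are shared).

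The cell cycle inhibitor p21 was lower and most replication genes were higher. CDKN1A (p21), an inhibitor of cyclin-dependent kinases, stood at 72.6 and 75.8 CPM with sgLuc, 7.27 and 8.21 with sgUTX_2 and 7.08 and 6.19 with sgUTX_4 (log2 fold change -3.36, SE 0.10, adjusted p = 8.20e-18). CDKN2D fell by 1.9, and among 15 CDK inhibitors and D cyclins 8 fell and 5 rose (median -0.53). CDK6, a kinase of the G1 phase, stood at 50.9 and 48.8 CPM with sgLuc, 110.1 and 107 with sgUTX_2 and 114 and 113 with sgUTX_4 (log2 fold change 1.16, SE 0.06, adjusted p = 3.15e-13). CDK4 rose by 0.78 (43.2% of its exonic bases are shared with TSPAN31). Of 25 cell cycle and DNA replication genes 20 rose and 1 fell (median 0.54, summed level 2921 to 2948 CPM with sgLuc and 4137 to 4246 CPM with the UTX guides). The phosphatase CDC25A stood at 39.4 and 37.4 CPM with sgLuc, 77.7 and 79.7 with sgUTX_2 and 85.6 and 75.9 with sgUTX_4 (log2 fold change 1.05, SE 0.08, adjusted p = 1.90e-10). The helicase subunit MCM6 rose by 0.76 and E2F1 by 0.91. RRM2, a subunit of ribonucleotide reductase, was the member that fell (-0.20, adjusted p = 0.0339); 20.2% of its exonic bases are shared, and its adjusted p was 0.348 without sgLuc replicate 1 and 0.0829 and 0.0959 without sgUTX_2 replicates 1 and 2, 0.271 with sgUTX_4 alone and 0.869 with library size scaling alone. Mitotic genes moved less, with 6 of 20 higher and 1 lower (median 0.06). PLK1, a mitotic kinase, rose by 0.31 (adjusted p = 2.86e-04). The proliferation marker MKI67 stood at 341 and 310.2 CPM with sgLuc, 335 and 324 with sgUTX_2 and 337 and 353 with sgUTX_4 (0.05, adjusted p = 0.56).

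The integrated stress response, in which ATF4 raises genes for amino acid synthesis and uptake, was mostly higher. Of 20 measured members 16 rose and 4 fell (median 1.03, and 1.13 with sgUTX_2 and 0.90 with sgUTX_4). PSAT1 stood at 66.8 and 60.5 CPM with sgLuc, 356 and 412 with sgUTX_2 and 239 and 368 with sgUTX_4 (log2 fold change 2.43, SE 0.22, adjusted p = 9.19e-06). PHGDH, the first enzyme of serine synthesis, stood at 121 and 113 CPM with sgLuc, 445 and 439.9 with sgUTX_2 and 225 and 303 with sgUTX_4 (log2 fold change 1.59, SE 0.28, adjusted p = 0.00112), and sgUTX_4 gave less than sgUTX_2 (-0.74 between the guides, adjusted p = 0.0259). The leucine transporter SLC7A5 stood at 237 and 210.4 CPM with sgLuc, 816 and 870.2 with sgUTX_2 and 674 and 867 with sgUTX_4 (log2 fold change 1.85, SE 0.09, adjusted p = 6.71e-13). The cystine transporter SLC7A11 rose by 1.73 and asparagine synthetase ASNS by 2.46, from under 1 CPM (44.6% of its exonic bases are shared). ATF4 itself rose by 0.46 (SE 0.08, adjusted p = 1.54e-05). The 4 members that fell were ATF3, DDIT3 (CHOP), PPP1R15A (GADD34) and DDIT4. ATF3, which represses transcription under stress, stood at 26.2 and 32.1 CPM with sgLuc, 6.77 and 7.68 with sgUTX_2 and 7.99 and 6.13 with sgUTX_4 (log2 fold change -2.03, SE 0.12, adjusted p = 2.07e-12). PPP1R15A, which restores translation, stood at 74.5 and 88.1 CPM with sgLuc, 34.7 and 30.4 with sgUTX_2 and 25.95 and 26.5 with sgUTX_4 (log2 fold change -1.47, SE 0.09, adjusted p = 2.73e-11). DDIT3 changed by -1.05, and 39.6% of its exonic bases are shared with MARS.

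CHAC1, a target of ATF4 and CHOP, was the member that rose furthest.
It stood at 2.47 and 2.495 CPM with sgLuc, 23.8 and 29.7 with sgUTX_2 and 26.2 and 31.7 with sgUTX_4 (log2 fold change 3.48, SE 0.16, adjusted p = 2.27e-14), with no overlap between the controls and the UTX guides.
Its promoter is shown because it was the 1 promoter among the 17 matched members that held TTGCATCA, a composite element for C/EBP and ATF factors found in 0.87% of all promoters in the table (both strands searched; capitals mark it).
CHAC1, chr15:40953246-40953295, plus strand: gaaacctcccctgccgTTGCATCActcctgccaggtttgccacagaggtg

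Genes that charge transfer RNAs and build ribosomes rose alongside. Of 20 aminoacyl tRNA synthetases 16 rose and 1 fell (median 0.59, and 0.71 with sgUTX_2 and 0.56 with sgUTX_4). GARS, the glycine enzyme, stood at 116 and 118 CPM with sgLuc, 335 and 353 with sgUTX_2 and 236 and 329 with sgUTX_4 (log2 fold change 1.42, SE 0.13, adjusted p = 6.53e-07). MARS, the methionine enzyme, rose by 1.56. The member that fell was DARS, the aspartate enzyme (-0.36, adjusted p = 2.10e-04). Of 21 MYC and ribosome biogenesis genes 20 rose and 1 fell (median 0.67, and 0.68 with sgUTX_2 and 0.70 with sgUTX_4). MYC stood at 342 and 351 CPM with sgLuc, 622 and 632 with sgUTX_2 and 611 and 582 with sgUTX_4 (log2 fold change 0.82, SE 0.06, adjusted p = 9.87e-11). POLR1A, the large subunit of RNA polymerase I, stood at 46.5 and 47.96 CPM with sgLuc, 99.1 and 96.8 with sgUTX_2 and 104 and 106 with sgUTX_4 (log2 fold change 1.1, SE 0.07, adjusted p = 1.71e-11). MAX, the partner of MYC, was the member that fell (-0.25, adjusted p = 0.00102), and with library size scaling alone it was at -0.07 (adjusted p = 0.335).

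Most glycolysis and cholesterol genes were lower. Of 28 glycolysis and low-oxygen response genes 23 fell and 1 rose (median -0.66, summed level 17589.7 to 18622 CPM with sgLuc and 10797 to 11869 CPM with the UTX guides). The glucose transporter SLC2A3 stood at 477 and 521 CPM with sgLuc, 63.3 and 59.8 with sgUTX_2 and 65.1 and 69.2 with sgUTX_4 (log2 fold change -2.96, SE 0.11, adjusted p = 1.56e-11). The regulatory kinase PFKFB4 fell by 3.37 and NDRG1, which low oxygen induces, by 2.38. GAPDH, often taken as a reference, stood at 5093 and 5546 CPM with sgLuc, 3462 and 3430.2 with sgUTX_2 and 3468 and 3372 with sgUTX_4 (log2 fold change -0.63, SE 0.07, adjusted p = 2.20e-08). PFKM, a phosphofructokinase, was the member that rose (0.70, adjusted p = 9.03e-06). Of 22 cholesterol synthesis genes 19 fell and 1 rose (median -0.78, and -0.95 with sgUTX_2 and -0.67 with sgUTX_4). HMGCS1, which makes HMG-CoA, stood at 386 and 385 CPM with sgLuc, 126 and 113 with sgUTX_2 and 144 and 91.2 with sgUTX_4 (log2 fold change -1.7, SE 0.23, adjusted p = 2.46e-04). PMVK, a kinase of the same pathway, was the member that rose (0.31, adjusted p = 0.00182).

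Targets of KMT2A fusions did not move as 1 group. Of 21 measured members 8 rose, 9 fell and 4 were not called (median -0.16; 0.02 with library size scaling alone and 0.02 without sgLuc replicate 2). MEIS1, a cofactor of HOXA9, stood at 1.87 and 0.776 CPM with sgLuc, 4.72 and 5.71 with sgUTX_2 and 5.0997 and 4.29 with sgUTX_4 (log2 fold change 1.93, SE 0.28, adjusted p = 8.28e-06), so that both controls lay below all 4 UTX-guide libraries. MYB, a factor of progenitor growth, stood at 187 and 169 CPM with sgLuc, 356 and 343 with sgUTX_2 and 318 and 314 with sgUTX_4 (log2 fold change 0.90, SE 0.08, adjusted p = 2.88e-09). The survival gene BCL2 had 85.5 and 82.6 CPM with sgLuc, 197 and 183 with sgUTX_2 and 149 and 156 with sgUTX_4 (log2 fold change 1.03, SE 0.11, adjusted p = 6.47e-07). RUNX2 rose by 1.25 and PBX3, another HOX cofactor, by 0.89. Of the 7 measured HOXA genes of the list 6 fell, and 3 of these calls were lost with library size scaling alone, those of HOXA5, HOXA9 and HOXA10. HOXA9 stood at 30.3 and 30.3 CPM with sgLuc, 21.8 and 24.02 with sgUTX_2 and 26.7 and 26.99 with sgUTX_4 (log2 fold change -0.29, SE 0.09, adjusted p = 0.0124), a call that was lost with sgUTX_4 alone (-0.17, adjusted p = 0.114), without either sgLuc library (adjusted p = 0.0659 and 0.0723) and with library size scaling alone (-0.10, adjusted p = 0.339). HOXA10 fell by 0.45 (adjusted p = 0.00263; -0.27 and 0.063 with library size scaling alone), and HOXA9 and HOXA10 share 27% and 26.3% of their exonic bases with an antisense gene. HOXA11 fell by 0.65 (adjusted p = 0.00181). HOXA3, HOXA5, HOXA6 and HOXA7 stood at a few CPM or less: HOXA3 changed by -1.9 (adjusted p = 2.66e-04), HOXA5 by -0.70 (0.0351, and 0.338 without sgLuc replicate 2), HOXA6 by -2.28 (0.00247, and 0.126 without sgLuc replicate 2) and HOXA7, not called, by 1.06 (0.0968, and 0.0488 with library size scaling alone). MEF2C fell by 0.43 and JMJD1C by 0.70. Of 11 stem and progenitor genes 5 rose and 4 fell (median 0.13, and 0.59 with sgUTX_2 and -0.19 with sgUTX_4). The developmental factor DACH1 stood at 20.6 and 19.96 CPM with sgLuc, 78.98 and 79.3 with sgUTX_2 and 76.8 and 75.7 with sgUTX_4 (log2 fold change 1.94, SE 0.07, adjusted p = 2.24e-16). MMRN1 stood at 2.47 and 3.33 CPM with sgLuc, 17.9 and 20.5 with sgUTX_2 and 14.7 and 14.7 with sgUTX_4 (log2 fold change 2.55, SE 0.23, adjusted p = 9.43e-07). SOCS2 had 2.29 and 2.22 CPM with sgLuc, 12.1 and 12.7 with sgUTX_2 and 11.9 and 11.3 with sgUTX_4 (log2 fold change 2.41, SE 0.14, adjusted p = 1.81e-12).

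**Figure D3:**
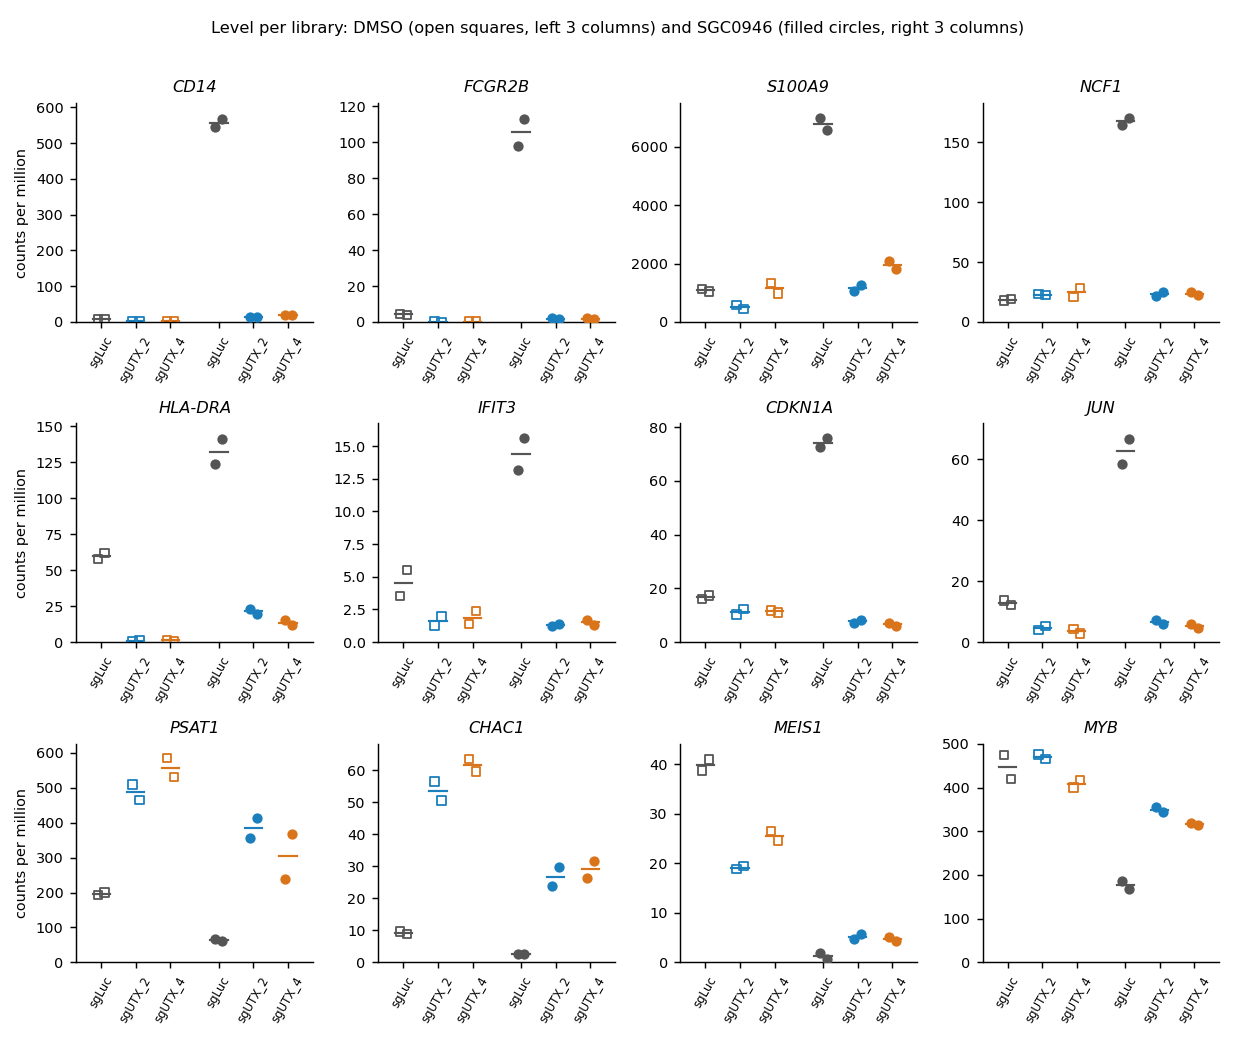
Level in CPM (y axis, from 0) of 12 genes in each of the 12 libraries (points), by guide (x axis), with DMSO as open squares on the left and SGC0946 as filled circles on the right; lines are means of 2 libraries. In SGC0946 the sgLuc libraries lie above both UTX guides for CD14, FCGR2B, S100A9, NCF1, HLA-DRA, IFIT3, CDKN1A and JUN and below them for PSAT1, CHAC1, MEIS1 and MYB.

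Survival and drug-handling genes moved in both directions. Beside the counts of this paragraph, 27.7% of all genes tested were called higher and 29.3% lower. In the BCL2 family 3 of 15 rose and 5 fell (median -0.01; 0.18 with library size scaling alone), with BCL2A1, an NF-kB target, at 150.2 and 165 CPM with sgLuc, 24.4 and 25.7 with sgUTX_2 and 29.2 and 25.6 with sgUTX_4 (log2 fold change -2.59, SE 0.08, adjusted p = 3.96e-17). MCL1 changed by -0.50 and the death inducer BCL2L11 (BIM) by 0.60. Of 15 genes for uptake and metabolism of nucleoside drugs 5 rose and 4 fell (median 0.01). SAMHD1, which hydrolyses active cytarabine, stood at 508 and 523 CPM with sgLuc, 269 and 257 with sgUTX_2 and 268 and 276 with sgUTX_4 (log2 fold change -0.95, SE 0.06, adjusted p = 1.81e-12). Cytidine deaminase CDA, which inactivates cytarabine that has not yet been activated, fell by 1.27. Of 31 respiratory chain genes 6 rose and 5 fell (median -0.01; 0.17 with library size scaling alone), and of 25 proteasome subunits 11 rose and none fell (median 0.11).

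Of the markers of red cells, platelets, lymphoid and adherent cells, TFRC and CD4 stood highest in the 6 libraries. Of 15 erythroid markers 12 had too few counts to be measured, and 10 of these, the globins and glycophorins among them, had 0 counts throughout; of 9 megakaryocyte markers 6 were not measured, with PF4 and PPBP at 0. The 3 measured erythroid markers summed to 743 to 770.5 CPM with sgLuc and 309 to 611 CPM with the UTX guides, and 2 of them fell. Most of that sum was TFRC, the transferrin receptor, which dividing cells of many types carry, with 744 and 713 CPM with sgLuc, 303 and 297 with sgUTX_2 and 601 and 443 with sgUTX_4 (-0.83, adjusted p = 0.0602; -1.28 and 0.00203 with sgUTX_2 alone, and -0.48 and 0.0952 with sgUTX_4 alone). The 3 measured megakaryocyte markers summed to 13.9 to 14.5 CPM with sgLuc and 5.78 to 8.78 CPM with the UTX guides, and 2 of them fell. The 9 measured of 17 lymphoid markers summed to 177 to 195 CPM with sgLuc and 92.2 to 94.7 CPM with the UTX guides, and 6 of them fell, but CD4, which monocytes also carry, stood at 127 and 147 CPM with sgLuc and 63.4 to 67.4 with the UTX guides within that sum, and MS4A1 (CD20) was at 0. The 6 measured of 10 adherent cell markers summed to 11.5 to 12.4 CPM with sgLuc and 7.53 to 14.5 CPM with the UTX guides, with 1 called lower. Their largest change was upward (7.85) and not called with both guides together, and with each guide alone 1 member was called higher and 1 lower. The monocyte list itself summed to 12879.9 to 13053 CPM with sgLuc and 3938 to 6027 CPM with the UTX guides. The part of such cells in the results was not tested.

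The last question was where the effect of the UTX guides differed between SGC0946 and DMSO. In DMSO 4325 genes were higher (28.7%) and 4863 lower (32.3%). The difference between the 2 effects, tested as an interaction over all 12 libraries, was called for 5240 genes (34.8%), 2756 with a value above 0 (18.3%) and 2484 below 0 (16.5%). Among the 10 genes with the largest interaction, 9 were negative. C5AR1 stood in DMSO at 2.74 and 3.71 CPM with sgLuc, 5.89 and 5.44 with sgUTX_2 and 4.47 and 5.29 with sgUTX_4, and rose with the UTX guides there (0.73, adjusted p = 0.00308) while it fell in SGC0946 (interaction -4.37 on the log2 scale, SE 0.24, adjusted p = 5.18e-12). MPEG1, a pore-forming protein of macrophages, stood in DMSO at 4.23 and 5.83 CPM with sgLuc, 3.93 and 3.68 with sgUTX_2 and 8.16 and 7.08 with sgUTX_4, against 309 and 342 CPM with sgLuc, 12.6 and 12.6 with sgUTX_2 and 19.9 and 20.8 with sgUTX_4 in SGC0946 (interaction -4.49 on the log2 scale, SE 0.52, adjusted p = 2.20e-04). The lectin FCN1 had an interaction of -4.48 (adjusted p = 0.0199, 0.0713 and 0.0911 without sgLuc DMSO replicates 1 and 2, and 0.051 without sgLuc SGC0946 replicate 2) and differed between the guides in SGC0946 (127 and 136 CPM with sgLuc, 12.7 and 12.7 with sgUTX_2 and 37.5 and 34.4 with sgUTX_4; 1.5, adjusted p = 1.62e-07). ADGRE3, LILRA5, HP, VNN2, LILRA6 and LILRB3 were at most 0.606 CPM in every DMSO library and between 13.8 and 79.7 CPM in the sgLuc SGC0946 libraries, so that their interactions (-6.47, -5.81, -5.05, -5.04, -4.91 and -4.70) rest on a few counts in DMSO. For VNN2 the adjusted p of the interaction was 0.186 without sgUTX_2 DMSO replicate 2 and 0.986 when the guides were fitted as separate groups and averaged. JPH2, a junction protein of muscle, was the positive one: it stood in DMSO at 65.7 and 61.2 CPM with sgLuc, 0.0982 and 0.175 with sgUTX_2 and 0 and 0 with sgUTX_4, against 11.1 and 12.3 CPM with sgLuc, 0.802 and 0.329 with sgUTX_2 and 0.397 and 0.204 with sgUTX_4 in SGC0946 (interaction 4.89, adjusted p = 2.93e-06). JPH2 fell with the UTX guides in both treatments (-9.6 in DMSO and -4.71 in SGC0946). The positive value is thus a smaller fall in SGC0946, and it rests on a few counts with the UTX guides in DMSO.

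**Figure D4:**
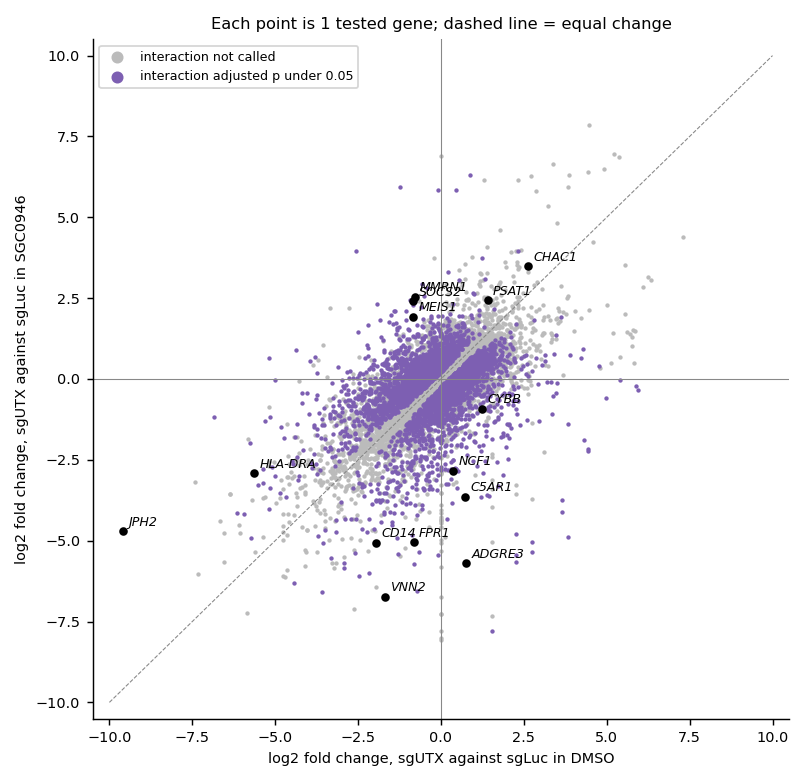
Log2 fold change of UTX guides against sgLuc in SGC0946 (y axis) and in DMSO (x axis) for each of the 15060 genes tested (points), purple where the interaction was called; the dashed line marks equal change. CD14, FPR1, NCF1, C5AR1 and ADGRE3 lie far below the line, and SOCS2, MMRN1 and MEIS1 lie above 0 in SGC0946 and below 0 in DMSO.

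Several phagocyte genes fell in SGC0946 and rose, or fell by less, in DMSO. NCF1 stood in DMSO at 18.1 and 19.003 CPM with sgLuc, 23.4 and 22.4 with sgUTX_2 and 21.1 and 28.5 with sgUTX_4, about the level of the UTX-guide libraries in SGC0946 (interaction -3.19 on the log2 scale, SE 0.14, adjusted p = 1.72e-13). CYBB stood in DMSO at 156 and 145 CPM with sgLuc, 351 and 329.5 with sgUTX_2 and 362 and 376 with sgUTX_4, so that it rose there and fell in SGC0946 (interaction -2.16 on the log2 scale, SE 0.10, adjusted p = 7.79e-13). CD14 stood in DMSO at 8.65 and 8.56 CPM with sgLuc, 2.11 and 2.59 with sgUTX_2 and 2.26 and 1.84 with sgUTX_4, and the UTX guides lowered it there too, by less (1.96 on the log2 scale; interaction -3.11 on the log2 scale, SE 0.29, adjusted p = 5.10e-06). Over the lists, negative interactions were called for 11 of 20 chemokine and cytokine receptors, with none positive. The same held for 9 of 19 chemokines and cytokines (2 positive) and 8 of 17 Fc and LILR receptors (1 positive). Negative calls were also made for 9 of 18 cathepsin and lysosome genes (2 positive), beside 16.5% of all genes. They were made for 5 of 6 oxidase subunits and 13 of 24 immediate early genes, with none positive in either. Among other phagocyte lists, 7 of 19 monocyte and macrophage genes were negative and 2 positive. Granule and neutrophil genes had 5 of 23 negative and 1 positive, and integrin and adhesion genes 5 of 20 negative against 7 positive. Replication genes rose less in SGC0946 than in DMSO, with a median of 0.54 against 1.2 and negative interactions for 21 of 25.

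SOCS2, MEIS1 and MMRN1 moved in opposite directions in the 2 treatments. SOCS2 stood in DMSO at 90.04 and 91.99 CPM with sgLuc, 46.2 and 48.2 with sgUTX_2 and 56.6 and 53.1 with sgUTX_4, so that the UTX guides lowered it there and raised it in SGC0946 (interaction 3.25 on the log2 scale, SE 0.16, adjusted p = 1.63e-12). MEIS1 stood in DMSO at 38.8 and 40.96 CPM with sgLuc, 18.8 and 19.5 with sgUTX_2 and 26.6 and 24.6 with sgUTX_4 (interaction 2.76 on the log2 scale, SE 0.31, adjusted p = 1.67e-06), and MMRN1 at 157 and 161 CPM with sgLuc, 83.02 and 78.6 with sgUTX_2 and 103 and 103 with sgUTX_4 (interaction 3.34 on the log2 scale, SE 0.27, adjusted p = 1.25e-06). In all 3 genes the sgLuc libraries were the highest group in DMSO and the lowest in SGC0946. MYB showed no call in DMSO (-0.02, adjusted p = 0.817; interaction 0.93 on the log2 scale, SE 0.11, adjusted p = 1.07e-06), as did DACH1 (-0.09, adjusted p = 0.19; interaction 2.03 on the log2 scale, SE 0.09, adjusted p = 1.84e-13). Positive interactions were called for 11 of 21 KMT2A fusion targets (4 negative) and 5 of 11 stem and progenitor genes (2 negative), beside 18.3% of all genes. They were also called for 13 of 28 glycolysis and low-oxygen genes (3 negative) and 6 of 10 class II genes (none negative). For HLA-DRA this was a smaller fall in SGC0946, since it stood in DMSO at 57.7 and 61.9 CPM with sgLuc, 0.835 and 1.36 with sgUTX_2 and 1.65 and 0.972 with sgUTX_4 (interaction 2.71 on the log2 scale, SE 0.40, adjusted p = 6.36e-04). Of 22 cholesterol genes 2 were called for the interaction.

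Between the guides in SGC0946, 454 genes differed (3.01%), 243 higher with sgUTX_4 (1.61%) and 211 lower (1.40%). That count rests on single libraries: it was 102 and 283 without sgUTX_2 replicates 1 and 2, 90 and 373 without sgUTX_4 replicates 1 and 2, 309 and 313 without sgLuc replicates 1 and 2, and 828 when the 6 SGC0946 libraries were fitted alone. KDM6A had the difference with the smallest adjusted p of those named here (1.6, SE 0.10, adjusted p = 1.60e-13). Granule and neutrophil genes held 12 of the differences, all higher with sgUTX_4, out of 23 members, and monocyte and macrophage genes 6 of 19, also all higher, beside 1.61% of all genes. Aminoacyl tRNA synthetases held 5 of 20, all lower with sgUTX_4, beside 1.40%. Their summed level was 5207 and 5306 CPM with sgUTX_2, and 4298 and 4876 CPM in sgUTX_4 replicates 1 and 2. Replicate 1 of sgUTX_4 thus lay furthest from sgUTX_2, and how far it carries these calls was not tested. S100A12 stood at 351 and 357 CPM with sgLuc, 11.4 and 10.96 with sgUTX_2 and 25.5 and 20.3 with sgUTX_4 (1.03, adjusted p = 1.62e-07), higher with sgUTX_4 than with sgUTX_2 and far below the controls with both.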

How the data were processed

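RNA-seq counts of 12 OCI-AML2 libraries were used, 2 for each combination of 3 guides and 2 treatments. The authors deposited raw counts of reads per gene, not normalized. The aligner STAR 2.5.1b and the build hg19 are listed, per the submitters' processing notes. All 58735 identifiers occur in GENCODE 29, which annotates GRCh38, and this leaves the counted build uncertain. GENCODE 29 supplied names, positions and shared exonic bases. How reads were assigned to genes (program, strand, multiple matches) is not given in the sources used here. The members, lists, tests and alternatives were chosen with earlier results of these data known.

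The test was edgeR 4.0.16's quasi-likelihood F-test (R 4.3.3), robust and two-sided, after filterByExpr and TMM scaling, with Benjamini-Hochberg adjusted p-values over all 15060 genes kept, called at under 0.05. All 12 libraries were fitted in 4 groups (sgLuc or UTX guides, DMSO or SGC0946) with 8 residual degrees of freedom. The spread between guides enters the error, mixed with that between libraries of the same guide. The 4 UTX-guide libraries of a treatment counted as separate although they hold 2 guides, and the controls hold 1. The 8 degrees of freedom thus overstate the number of independent units, and p-values can be too small. The common BCV, the variation between libraries of a group beyond sampling, was 0.0775 and includes the spread between guides. A fit of 6 groups (6 degrees of freedom, BCV 0.057) gave single guides and their difference. Standard errors are the fold change divided by the root of F. TMM factors of the 6 SGC0946 libraries were 0.924 and 0.934 with sgLuc and 1.05 to 1.07 with the UTX guides. DESeq2 1.42.0 was an alternative. Total counts were 15480493 to 23262141 over the 12 libraries. The 2 libraries of a group were in no case duplicates: their chi-square was 2.85 to 6.29 a gene, against 1 from sampling alone.

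Named are KDM6A, the 15 higher and 15 lower protein-coding genes with the largest change among those called, also with each guide alone, and at 10 CPM or more in the higher group, the 10 largest called interactions at 10 CPM or more in a group, and members of 40 gene lists (644 genes matched). Of list members those with most bearing on each group are named, chosen after their values were seen; 3 list symbols, older names, matched no gene. Some list members are counted in their lists but not reported by name here. Promoters are RefSeq's (GRCh38.p14), matched by symbol for 497 of 665 list or named genes. Tested on simulated counts of 14538 genes for this comparison, the fit recovered 92% of 100 genes changed 2-fold and 59% of 100 changed 1.5-fold, and called 7 unchanged genes. No other gene was changed there and both guides had the same mean level. In the data far more genes were called and the guides differed, so these rates need not hold for the data. The lists for DOT1L partners, surface targets, p53 targets, SOCS and PIM feedback, fatty acid synthesis, efflux pumps and metallothioneins are given in the closing section.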

Additional observations from a re-analysis of the deposited data

Results flagged for a closer look

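The effect of the UTX guides differed between SGC0946 and DMSO, by the interaction term, for 109 of the 168 named genes. Over all genes tested the share was 34.8%, but some of the named genes were chosen for this difference and others after their values were seen, so nothing is read from their count. Values are log2 differences, SGC0946 minus DMSO. The most negative were those of ADGRE3 (-6.47), LILRA5 (-5.81), HP (-5.05), VNN2 (-5.04), LILRA6 (-4.91), LILRB3 (-4.7), MPEG1 (-4.49), FCN1 (-4.48), C5AR1 (-4.37), FPR1 (-4.23), STEAP4 (-4.12), CAMP (-3.45), TNF (-3.39), NCF1 (-3.19), CD14 (-3.11), OAS3 (-3.03) and ENPP2 (-3.0). Further negative values belonged to VNN1 (-2.92), CCL2 (-2.9), CDKN1A (-2.81), HMOX1 (-2.8), FCGR3A (-2.77), HAVCR2 (-2.63), IFIT1 (-2.57), IL1B (-2.54), ATF3 (-2.52), EGR1 (-2.48), EGR2 (-2.3), HOXA6 (-2.19), ITGAM (-2.16), CYBB (-2.16), IFIT3 (-2.01), SPP1 (-1.89) and TFRC (-1.86). Smaller negative values were found for FCER1G (-1.76), BCL2A1 (-1.75), CXCL8 (-1.72), JUN (-1.72), RRM2 (-1.62), ISG15 (-1.48), FOS (-1.47), HOXA3 (-1.36), KLF4 (-1.31), CD86 (-1.17), BCL3 (-1.16), CTSS (-1.13), CTSB (-1.0), SAMHD1 (-0.97), EZH2 (-0.90), CDKN2D (-0.88) and TLR4 (-0.86). The negative values nearest 0 were those of E2F1 (-0.86), BTG2 (-0.86), MKI67 (-0.77), CDC25A (-0.76), CEBPB (-0.59), ITGB2 (-0.58), JMJD1C (-0.57), MCL1 (-0.57), MEF2C (-0.55), KDM6B (-0.54), NFKB1 (-0.51), MCM6 (-0.48), SLC2A3 (-0.46), LAMP1 (-0.36) and SPI1 (-0.30).

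On the positive side the largest were those of JPH2 (4.89), MMRN1 (3.34), SOCS2 (3.25), APOE (2.87), MEIS1 (2.76), HLA-DRA (2.71), MT2A (2.41), CIITA (2.03), DACH1 (2.03), UNC5C (1.95) and RUNX2 (1.79). Further positive values belonged to PFKFB4 (1.77), PBX3 (1.61), PFKM (1.2), PHGDH (1.09), BST2 (1.08), MYC (1.07), ASNS (1.06), CTH (1.06), PSAT1 (1.02), CDK6 (1.01) and AZU1 (0.93). Smaller positive values were found for MYB (0.93), CSF1R (0.91), CHAC1 (0.85), DDN (0.84), GFI1 (0.83), NDRG1 (0.82), DARS (0.69), BCL2 (0.63), PMVK (0.57), FLT3 (0.57) and RFX5 (0.55). The positive values nearest 0 were those of PLK1 (0.55), GPT2 (0.55), CD74 (0.54), ITGA4 (0.54), GARS (0.48), HOXA10 (0.48), ATF4 (0.41), PECAM1 (0.39), HOXA9 (0.37) and GAPDH (0.25).

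The guides themselves differed in SGC0946 for 29 of the 168 named genes, beside 3.01% of all genes tested, and nothing is read from this count either. Values are log2, sgUTX_4 over sgUTX_2. Higher with sgUTX_4 were DEFA3 (1.88), KDM6A (1.6), DEFA4 (1.58), FCN1 (1.5), CXCR1 (1.22), CTSG (1.04), S100A12 (1.03), STEAP4 (1.01), FCGR3B (0.89), EPB41L2 (0.85) and ELANE (0.70). Also higher, by less, were MPEG1 (0.69), FPR1 (0.63), ITGAM (0.62), CD14 (0.55), MMP9 (0.50), HOXA10 (0.38), TLR4 (0.34), FCER1G (0.31), AZU1 (0.31) and LAMP1 (0.22). Lower with sgUTX_4 were PHGDH (-0.74), HLA-DRA (-0.68), MMRN1 (-0.38), MARS (-0.35), BCL2 (-0.32), PBX3 (-0.32), FLT3 (-0.27) and CD74 (-0.24). With single libraries left out, 90 to 373 genes were called in place of 454.

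In 7 genes 1 of the 4 UTX-guide libraries in SGC0946 lay apart from the other 3, at the CPM given: LILRB1 (20.3), IL10RA (11.4), PHLDA1 (1.4), ICAM1 (0.665), GPT2 (92.9), LILRA1 (32.2) and ACACA (125). The gap to the nearest library took up more of the range of the 4 than Dixon's 95% critical value allows, which chance gives in about 1 in 20 groups.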

How the results depend on the processing

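The 4165 genes higher and 4406 lower in SGC0946 stayed within 1.5 times under each alternative run, with 3210 to 4054 higher and 3612 to 4299 lower without 1 library, and 3792 and 4457 by DESeq2's Wald test. With the replicate number as a block the counts were 4073 and 4327, and 441 between the guides, and no pairing is stated: same-numbered libraries deviated together with correlations of -0.204 to 0.106. The count between the guides moved most, from 454 to 828 with the 6 SGC0946 libraries fitted alone and to between 90 and 373 with 1 library left out. The cause was not tested. Values that changed sign were those of KDM6A (0.41 with sgUTX_4 alone, -0.53 to 0.0350 with 1 library left out, and 0.0198 without sgUTX_2 replicate 2), CTSG, DEFA3 and DEFA4 with sgUTX_2 alone (-0.12, -0.0551 and -0.44), IFIH1 (0.0482 with library size scaling alone, -0.39 to 0.19 with 1 library left out), FLT3 (-0.0946 with sgUTX_4 alone) and MKI67 (-0.0160 to 0.12 with 1 library left out). None of these 7 was called with both guides together in the test reported, although KDM6A, CTSG and DEFA3 were with the guides fitted apart and averaged, MKI67 and FLT3 with library size scaling alone (adjusted p of 0.0119 and 0.0255), and IFIH1 without sgLuc replicate 1 (adjusted p = 0.0383). Of 600 list medians recomputed over 40 lists and 15 alternatives, 25 changed sign, in 9 lists: KMT2A fusion targets, stem and progenitor genes, class I presentation, p53 targets, the BCL2 family, nucleoside analogue metabolism, efflux pumps, the respiratory chain and adherent cell markers. With 2 libraries a group, genes at a few counts, and changes of less than the shift between scalings, are the least certain.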

Other observations

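Metallothioneins and surface targets of immunotherapy were lower in most measured members in SGC0946. Metallothioneins, which bind zinc and copper, fell in 4 of 5 measured members (median -1.48), with MT2A at 45.7 and 60.4 CPM with sgLuc, 14.4 and 17.7 with sgUTX_2 and 26.1 and 22.5 with sgUTX_4 (log2 fold change -1.41, SE 0.30, adjusted p = 0.00333) and MT1G lower by 3.2 on the log2 scale. Surface targets of immunotherapy fell in 12 of 14 and rose in none (median -0.60), from HAVCR2 (TIM-3, -3.81, adjusted p = 8.72e-09) to FLT3, a receptor kinase that was not called (0.05, adjusted p = 0.64). Of 20 p53 targets 6 rose and 7 fell (median -0.02), with BTG2, an inhibitor of proliferation, changed by -3.25 (adjusted p = 3.63e-18). Of 13 SOCS, PIM and cytokine signalling genes 1 rose and 8 fell (median -0.52), SOCS3 by -1.99 (adjusted p = 1.57e-05) against 2.41 for SOCS2. Of 12 fatty acid synthesis genes 2 rose and 8 fell (median -0.29), and ACACA, which makes malonyl-CoA, was among those that rose (0.69, adjusted p = 2.86e-08). Of 8 drug efflux pumps 3 rose and 3 fell (median 0.10), and of 12 genes of the DOT1L and super elongation complexes 5 rose and 1 fell (median 0.15). The median of all genes was 0.01, and 27.7% of all genes were called higher and 29.3% lower.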
